A study of Sus scrofa with 32 samples.

Results

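Ileal cytotoxic CD8 T cells are killer T cells of the pig small intestine that carry the CD8 alpha beta coreceptor. Here they were chosen by 8 transcripts, and 1665 cells met the rule. They made up 75.7% of the 2200 ileal CD8 T cells and 4.71% of the 35386 ileal barcodes kept, out of 48629 kept in the whole series. A member was an ileal barcode with at least 1 unique molecular identifier (UMI, a count of 1 RNA molecule) of CD3E and of CD8B, at least 2 of GZMB, and more GZMB than CTSW. It held no UMI of TRDC, CD79B, TOP2A or EPCAM, which mark gamma delta T cells, B cells, dividing cells and epithelium. GZMB encodes granzyme B, a protease of killer granules, and CTSW encodes cathepsin W. Levels of these 8 genes are therefore a property of the choice and not a finding.

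A cytotoxic CD8 T cell reads peptides on MHC class I molecules through its receptor and coreceptor, and kills the presenting cell by releasing perforin and granzymes. In the gut many such cells live among the epithelial cells or just beneath them, where the integrin CD103, encoded by ITGAE, binds epithelial cadherin. Cells that stay in tissue are known for switching off the receptors that would carry them back to blood and lymph.

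The cells came from 2 mixed-breed pigs of 7 weeks of age that had been weaned at about 3 weeks, pig 1 labelled female and pig 2 labelled male, both without treatment. From each pig, ileum with Peyer's patches (PP), ileum without them (non-PP) and ileum as a whole were dissected, and peripheral blood mononuclear cells (PBMCs) were prepared. Each of these 8 libraries was sequenced in 4 runs, which were taken as 1 library and never as replicates, and PP, non-PP and whole ileum each had n = 2 libraries. The epithelium was first released chemically, the remaining tissue was digested with enzymes, and the cells of both steps were pooled, so the layer a cell came from is not known. Library totals ran from 21134542 to 40111934 UMIs, and members had a median of 2400 UMIs per cell (1964.5 to 2592 by library). By library the members numbered 114 and 197 in PP pigs 1 and 2, 413 and 403 in non-PP, and 348 and 190 in whole ileum.

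Some libraries stood apart. The library labelled whole ileum pig 1 carried Y-linked transcripts at 207 CPM over its kept barcodes (CPM, UMI counts scaled to a total of 1000000), where the other pig 1 libraries had 0.161, 0.224 and 0.0 and the pig 2 libraries had 119 to 226. In the gated CD8 T cells the Y-linked sum was 189.9 CPM there, and 0.0 in each of the other pig 1 libraries. For the comparisons with blood and with gamma delta T cells, counts of calls are therefore given with and without it, and named genes whose call was lost without it are pointed out. Levels and correlations over all 6 ileal libraries include it, and 1317 members were left without it. The 13 measured interferon-stimulated genes sorted the libraries the same way: their sum in the gated cells was 3615, 2793 and 3158 CPM in PP, non-PP and PBMC pig 1, and 7607 to 11293 in whole ileum pig 1 and the 4 libraries of pig 2.

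Whole ileum pig 2 stood apart in another way. Its members held 2138 CPM of 5 antibody-secreting cell genes, with JCHAIN at 1845, against 85.6 to 333 in the other ileal libraries, and its HBB level was 904 against 2.95 to 18.4. The upper limit for RNA from outside the cell, estimated from B cell and antibody-secreting cell genes, was 32.4% of its members' UMIs. It was 3.97% to 6.56% in the other ileal libraries. In whole ileum pig 2 the limit rests mostly on JCHAIN, which gave 1845 of the 2013.5 CPM of these genes. Other markers there stood lower beside empty droplets, B cell genes at 39.9 against 482 and epithelial genes at 128 against 3411. HBB was found in at most 3.68% of the members of any ileal library. Between 21 and 80 kept barcodes were shared by each of the 28 pairs of libraries, and 6 shared barcodes in all were members in both libraries of an ileal pair.

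**Figure D1:**
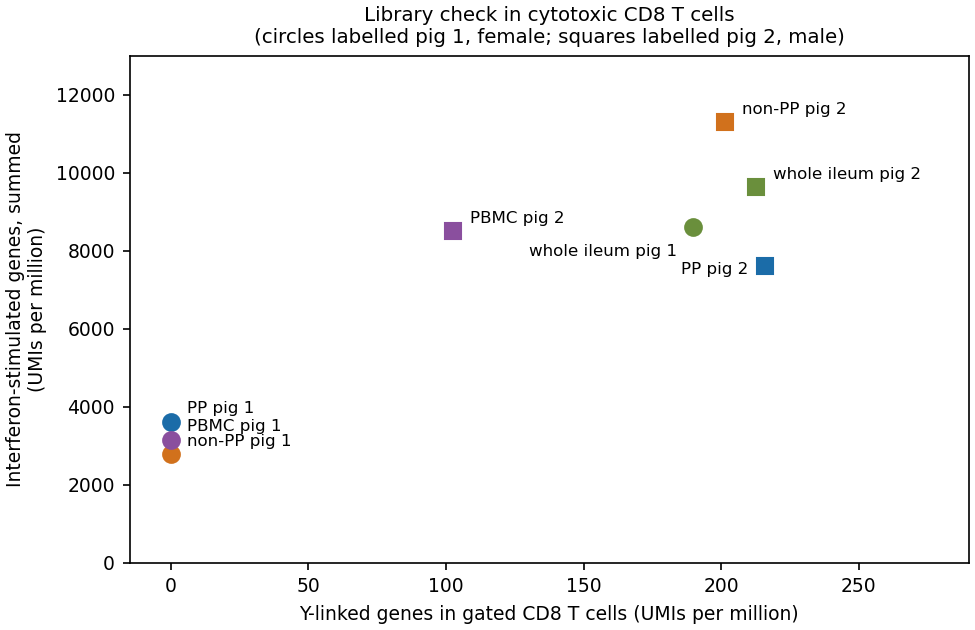
Summed Y-linked transcripts (x axis) against summed interferon-stimulated transcripts (y axis), both in CPM, in the gated CD8 T cells of each of the 8 libraries; circles are labelled pig 1 and squares pig 2, and colours mark the dissection. Whole ileum pig 1 sits at 189.9 on the x axis among the squares, while the other circles sit at 0.0.

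The label was checked against markers that the rule did not use. CD8A, the partner chain of CD8B, was found in 86.4% of members and 2.94% of ileal B cells, which should lack it and had more UMIs per cell (median 3078). CD3G and CD3D, chains of the T cell receptor complex, were found in 91.7% and 62.7% of members against 7.54% and 3.00% of B cells. Perforin (PRF1) was found in 47.9% against 1.29%, and NKG7, a protein of the granule membrane, in 81.0% against 5.95%. CD4, the coreceptor of helper cells, was found in 0.7% of members, and the natural killer receptor genes KLRB1 and NCR1 in 2.7% and 0.1%. Other receptors shared with natural killer cells were found more often, FCGR3A in 93.1%, KLRK1 in 31.5%, FCER1G in 18.7% and KLRC1 in 10.9%. CCR7, a gene of naive T cells, was found in 4.14% of members, below its 10.5% in B cells. T cell and killing markers thus go with the name, and some natural killer receptors were present as well.

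GZMB is a gene of the rule, so its level is given as a description only. The median member held 35 and 21 GZMB UMIs in PP pigs 1 and 2, 32 and 35 in non-PP, and 27.5 and 20.5 in whole ileum, and 94.96% of members held at least 6. Free GZMB RNA was nevertheless present: 4.25% to 73.9% of ileal B cells reached the 2 UMIs of the rule, the highest shares standing in non-PP, where only 17 and 46 B cells were found. At 6 UMIs the share of B cells was 0.0% to 13.0%. Just inside the threshold lay 12 members with 2 UMIs of GZMB, and just outside it 9 CD8 T cells with 1 UMI of GZMB and no CTSW. A further 275 CD8 T cells reached 2 UMIs but had as much or more CTSW. Members with 3 to 5 GZMB UMIs (72 cells) carried 509 CPM of GNLY and 1088 of XCL1, and members with 6 or more carried 4193 and 344, so the cells near the threshold lay nearer to the CTSW-high cells described below.

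Levels are in CPM of all UMIs summed over the members, and since each molecule is counted once at its 3′ end they carry no term for gene length. CCL5, a chemokine stored in cytotoxic granules, stood second among all named genes outside ribosomal and mitochondrial ones. Its level over the 6 ileal libraries ran from 17970 through a median of 21430 to 33589 CPM, lowest in PP pig 2 and highest in non-PP pig 1. It was found in 97.4% of members, but also in 52.4% of B cells, where its level was 253. The remaining leaders were largely genes of every lymphocyte, such as TMSB4X at 28047, TMSB10 at 16646 and B2M at 9450. The names of 4 features among the leading 30, FLT3LG, SYVN1, KXD1 and HSD11B1L, are uncertain, and these features were found in nearly every B cell too.

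Some granule genes varied widely between libraries. GNLY encodes granulysin, which perforates microbial membranes, and ran from 1497 CPM in whole ileum pig 2 through a median of 2719 to 5989 in non-PP pig 1, found in 28.9% to 92.8% of members and in 30.8% of ileal B cells, so that its lowest share, in PP pig 2, was no higher than in B cells. Granzyme A is given by 2 neighbouring, near-identical GZMA entries, between which reads may have been split, so their levels are uncertain. The entry ENSSSCG00000016902 ran from 3245 to 6094 with a median of 5066. PRF1 ran from 171 to 316 with a median of 245, found in 35.1% to 54.3% of members. GZMK, a granzyme linked in other species to memory rather than terminal killer cells, ran from 186 to 367. By contrast CD8A kept to 826 to 913 and CTSC, the protease that activates granzymes, to 605 to 687.

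Some receptors shared with natural killer cells were uneven between libraries. FCER1G, an adaptor chain for activating receptors, ran from 37.2 CPM in PP pig 2 through a median of 142 to 461 in non-PP pig 1. KLRK1, which encodes NKG2D, ran from 136 to 542 and KLRC1, an NKG2 family receptor, from 17.7 to 162, both highest in non-PP pig 1 as well. FCGR3A, the Fc receptor CD16, ran from 1834 to 3155 and was found in 7.34% of B cells.

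Within a library FCER1G, KLRC1 and KLRK1 were compared from cell to cell. After each cell was thinned to the same depth, the Spearman correlation between FCER1G and KLRC1 had a median of 0.46 over the 6 libraries (0.30 to 0.61), and that between FCER1G and KLRK1 a median of 0.25 (0.13 to 0.50). The GZMA entries, between which reads may have been split, correlated with each other at 0.77 (0.72 to 0.82). With CCL5, ENSSSCG00000016902 correlated at 0.41 (0.09 to 0.58) and ENSSSCG00000016903 at 0.32 (0.08 to 0.48). The cells of a library share their depth and free RNA, so these values are descriptions of the cells. In this respect GNLY was also scattered: in thinned members its median was 1 UMI and its 90th percentile 16.

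**Figure D2:**
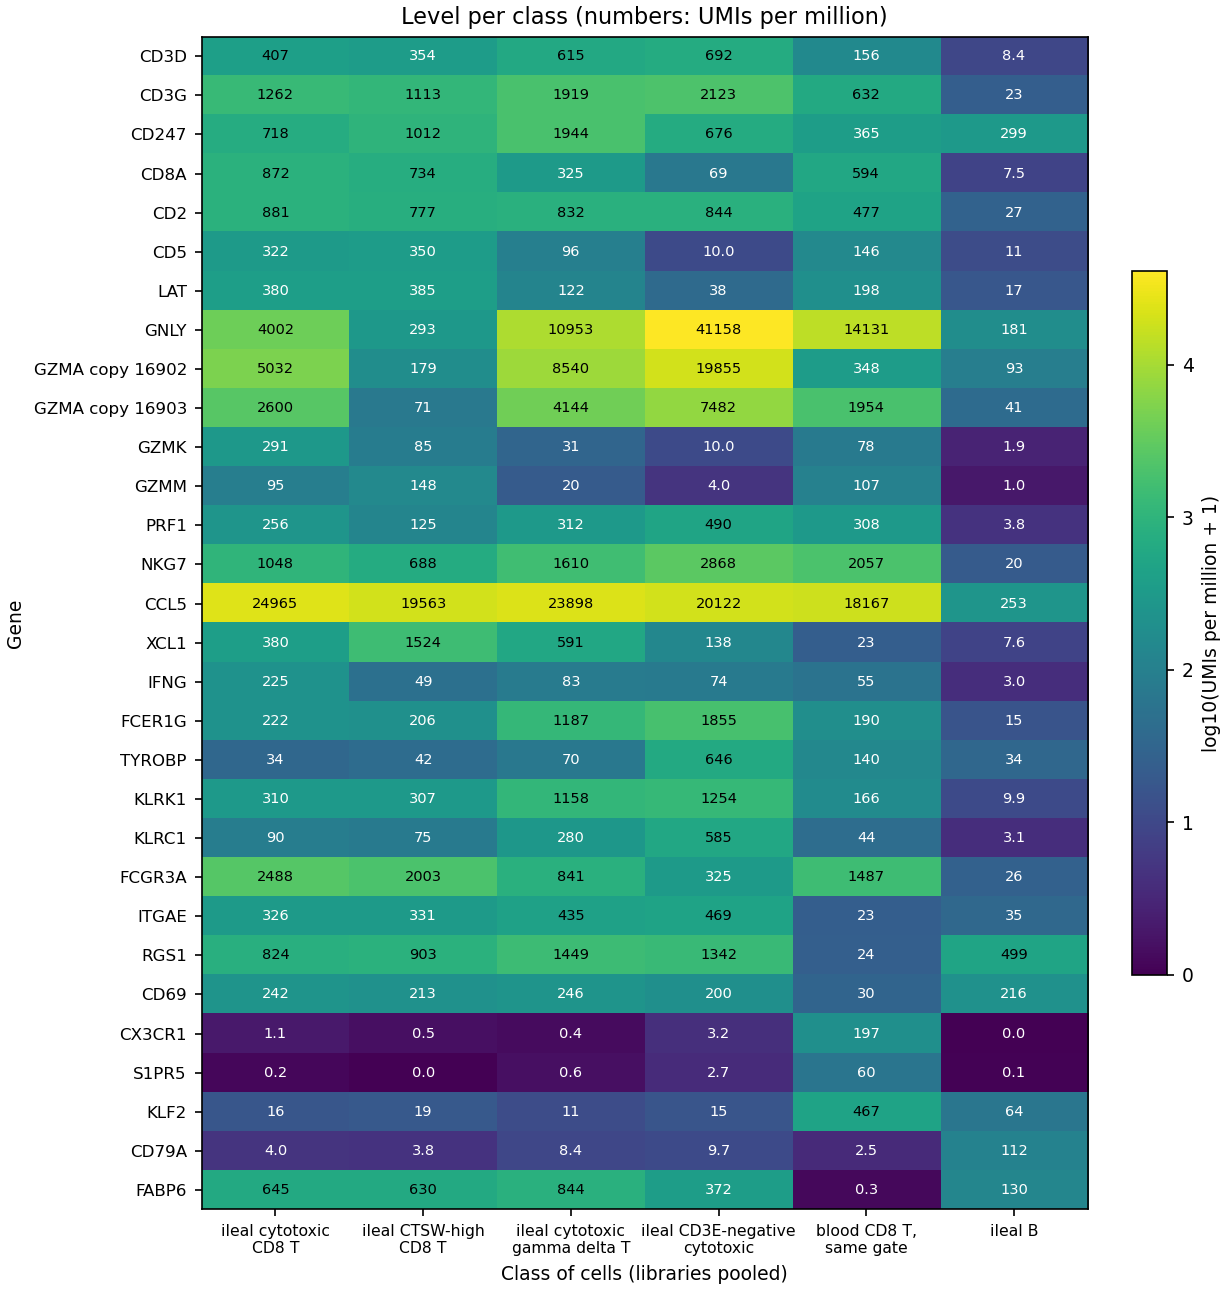
Level of 30 genes (rows) in 6 classes of cells (columns, libraries pooled), printed in CPM and coloured on a log10 scale of that level plus 1; the GZMA entries are named by the last digits of their identifiers. The ileal cytotoxic CD8 T cells carry GZMK at 291 against 31.02 in gamma delta T cells, and CX3CR1 at 1.05 against 197 in blood CD8 T cells.

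The remaining ileal CD8 T cells were mostly CTSW-high: 501 cells had at least 2 CTSW UMIs and no more GZMB than CTSW, and 34 cells fell in neither class. GZMB and CTSW made this split, so the values are a description with no test. GNLY stood at 4002 CPM in members and 293 in CTSW-high cells, and GZMA (ENSSSCG00000016902) at 5032 and 179. XCL1, a chemokine for cross-presenting dendritic cells, went the other way, at 380 and 1524, as did the gut-homing receptor CCR9 at 80.3 and 184. IFNG, the macrophage-activating cytokine, was at 225 in members and 49.4 in CTSW-high cells. Genes of T cell identity were close, with CD8A at 872 and 734 and CD5, a receptor that dampens T cell receptor signals, at 322 and 350.

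Another group passed the same GZMB and CTSW gate without CD3E, CD8B, CD4 or TRDC and with FCER1G or TYROBP (1415 cells). It is called CD3E-negative here, because its CD3D and CD3G levels of 692 and 2123 CPM were above those of the members (407 and 1262). GNLY was 41158 in these cells and 4002 in members, GZMA (ENSSSCG00000016902) 19855 and 5032, while GZMK was 9.98 and 291 and CD8A 69.0 and 872. These too are values with no test.

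The first comparison asked whether cytotoxic cells made up a different share of ileal CD8 T cells where Peyer's patches were present. The share was 54.8% (95% Clopper-Pearson interval 47.8% to 61.7%) in PP pig 1, 73.5% (67.8% to 78.7%) in PP pig 2, 75.2% (71.4% to 78.8%) in non-PP pig 1 and 82.8% (79.1% to 86.0%) in non-PP pig 2. Both PP values lay below both non-PP values, though the intervals of PP pig 2 and non-PP pig 1 overlapped. The mean was 64.2% ± 13.2 (SD, n = 2) in PP and 79.0% ± 5.32 (SD, n = 2) in non-PP, a difference of -14.8 percentage points, with -20.4 in pig 1 and -9.24 in pig 2. Without PP pig 1 the difference was -5.48 points, and without PP pig 2 it was -24.2. A two-sided exact permutation test gave p = 0.33, the smallest that 2 libraries against 2 allow, so the difference could not reach significance. Whole ileum lay at 80.7% (76.7% to 84.4%) in the library labelled pig 1 and 73.9% (68.1% to 79.2%) in pig 2. In blood the same share was 55.8% and 92.5%.

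Free GZMB RNA was more frequent in non-PP B cells (17 and 46 cells) than in PP B cells. With at least 6 GZMB UMIs required, a gate chosen after seeing the data, the difference was -15.8 points. With every cell thinned to the same depth the shares were 66.9%, 74.7%, 79.7% and 84.6% in the same order, a difference of -11.3 points. Taken of all ileal barcodes with CD3E instead, members were 4.10% and 8.19% in PP and 12.1% and 15.5% in non-PP. All of these intervals cover counting error only.

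**Figure D3:**
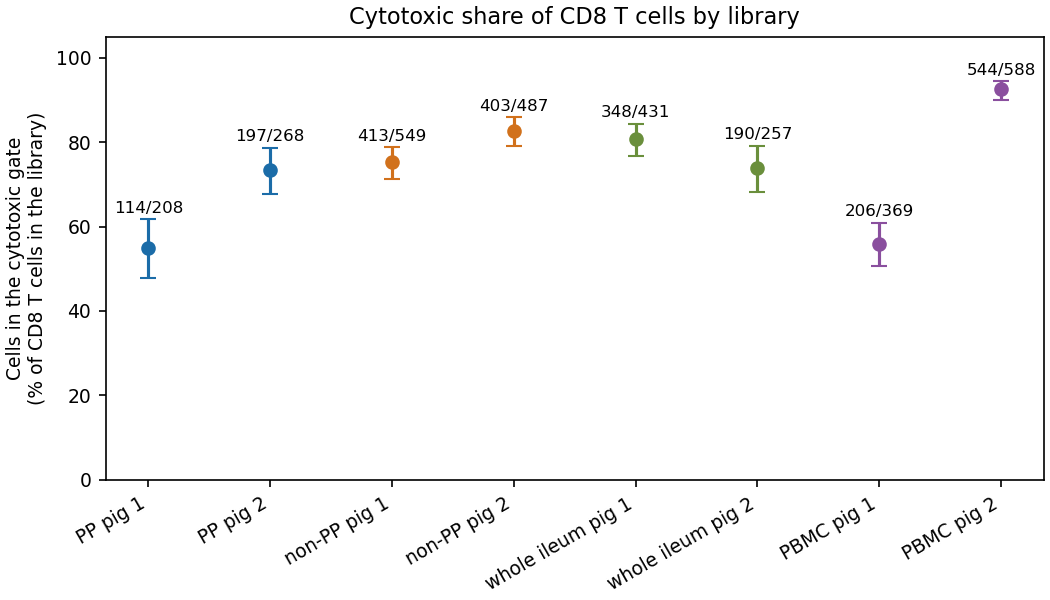
Share of CD8 T cells that passed the cytotoxic gate (y axis, percent) in each of the 8 libraries (x axis), with 95% Clopper-Pearson intervals as bars and the counts printed above. PP pig 1 is at 54.8% and PP pig 2 at 73.5%, below non-PP at 75.2% and 82.8%, and the PBMC libraries differ most, at 55.8% and 92.5%.

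The next question was whether the members themselves differed between PP and non-PP. No gene of 5854 tested was called (0.0%) by edgeR's quasi-likelihood test on library sums with Benjamini-Hochberg adjustment (adjusted p under 0.05). Of these genes, 176 had an unadjusted p under that value. DESeq2 called 0 genes as well, with 40 at an unadjusted p under it. With pig as a block 2 genes were called, ZNF70 and the unnamed ENSSSCG00000038719. With n = 2 libraries on each side, the lack of calls does not show that the members were alike.

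None of the genes given next passed this test. CCR7, the receptor that guides T cells into lymphoid tissue, stood at 13.6 and 83.8 CPM in PP, 0.0 and 3.54 in non-PP, and 49.2 and 37.7 in whole ileum. The groups did not overlap, and the log2 fold change of PP over non-PP was 4.91 ± 0.91 (SE), adjusted p = 0.611 by edgeR. LTB, a cytokine for lymphoid tissue organisation, stood at 62.5 and 160.1 in PP, 13.6 and 38.0 in non-PP and 157 and 142 in whole ileum (log2 fold change 2.24, adjusted p = 0.611). Of 14 alternatives, 2 called CCR7 (no filter on low counts, and PP pig 1 left out) and 2 called LTB (no filter, and non-PP pig 2 left out). B cells carry both genes, at 63.0 and 795 CPM, and of pig 1 3271 B cells were kept from PP but 17 from non-PP. After subtraction of free RNA the log2 fold changes were 5.20 for CCR7 and 1.97 for LTB, again not called. Of the 14 circulation genes tested, 4 had both PP libraries above both non-PP libraries and 1 had both below, where over all genes 10.0% lay above and 18.7% below.

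Among granule genes, GNLY stood at 2695 and 2184 in PP, 5989 and 5225 in non-PP and 2744 and 1497 in whole ileum, a log2 fold change of -1.14 ± 0.28 with an unadjusted p of 0.0018 and an adjusted p of 0.993, and it was called in 1 of 14 alternatives (no filter). Empty droplets held GNLY at 2097 and 2958 CPM in PP and 13558 and 24740 in non-PP, and after subtraction of free RNA its log2 fold change was -0.92. Of 18 granule entries, 1 lay above and 5 below without overlap, again beside 10.0% and 18.7% of all genes. The integrin gene ITGB1, on the circulation list, was at 43.5 and 31.7 in PP and 80.8 and 86.6 in non-PP (log2 fold change -1.12, adjusted p = 0.840). No list held a called gene, and the median log2 fold changes ran from -0.58 for natural killer receptors to 0.65 for circulation genes among the lists of T cell function. Markers of other cells moved with this contrast without being called. The 3 antibody-secreting genes tested had a median of 2.22, with JCHAIN at 147 and 216 in PP against 19.99 and 63.6 in non-PP, and the 4 epithelial genes tested had -1.64, with FABP6 at 386 and 59.6 against 1857 and 357. Beyond the subtraction of free RNA, their part in the differences of CCR7, LTB and GNLY was not tested.

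The largest contrast lay between ileum and blood. Blood held 206 and 544 CD8 T cells that passed the same gate, and sums per pig were compared in 1 fit with the other ileal classes. Of 8786 genes, 750 were higher in the ileal cells (8.54%) and 681 lower (7.75%) at an adjusted p under 0.05. Without the library labelled whole ileum pig 1, 385 of 8439 were higher (4.56%) and 271 lower (3.21%), and 652 of these 656 were also called with it. Leaving out markers of other cell types, 115 called genes were on a list or named by rule. Of these 83 were called without that library, 30 were not and the others could not be tested. After subtraction of free RNA 79 kept the call, 21 lost it and the others could not be tested. Tissue, enzymatic digestion and preparation cannot be told apart in this contrast, and n = 2 pigs on each side. The cells' depth differed too, with median UMIs of 3672 and 3989.5 in blood.

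Of 13 residency and gut homing genes tested, 7 were higher in ileum and 2 lower, with a median log2 fold change of 0.86 against 0.02 over all genes. ITGAE stood at 382 and 255 CPM in the ileal cells of pigs 1 and 2 and at 21.1 and 23.1 in blood (log2 fold change 3.81 with an SE of 0.31, adjusted p = 2.54e-05, and 4.58e-04 without whole ileum pig 1). RGS1, which blunts chemokine receptor signals, stood at 808 and 844 against 36.6 and 19.4 (4.94 ± 0.28, adjusted p = 2.31e-06, and 9.79e-05 without whole ileum pig 1). CD69, which removes the exit receptor S1PR1 from the surface, stood at 231 and 256 against 23.3 and 31.7 (3.06 ± 0.22). All of these lay above both blood values in both pigs. RGS1 and CD69 are not particular to T cells here, for they were found in 65.4% and 44.0% of ileal B cells.

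Homing receptors followed with smaller differences. CCR9, the receptor for the small-intestinal chemokine CCL25, stood at 85.0 and 74.5 against 23.3 and 18.3 (log2 fold change 1.97 ± 0.20), and CXCR6 at 28.8 and 20.8 against 3.33 and 4.85 (2.46 ± 0.34). CXCR3 rose by 0.86, a call lost without whole ileum pig 1 (adjusted p = 0.116). The members that fell were ZNF683, which encodes the residency factor Hobit, at 1.90 and 1.42 against 82.1 and 37.3 (-5.04 ± 0.61), and the integrin chain ITGA4 at 147 and 125 against 304 and 252 (-1.04 ± 0.19). Its partner ITGB7 was not called (log2 fold change -0.31, adjusted p = 0.195).

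Of 17 circulation genes tested, 14 were lower in ileum and 3 higher (median log2 fold change -2.09). CX3CR1, the fractalkine receptor of patrolling killer cells, stood at 0.759 and 1.42 CPM against 201 and 196 in blood (-7.50 ± 0.36, adjusted p = 1.09e-06, and 1.07e-04 without whole ileum pig 1). The transcription factor KLF2, which drives the exit receptors, stood at 12.9 and 20.8 against 464 and 469 (-4.84 ± 0.27, adjusted p = 2.32e-06). Without that library it was called too (-5.13, adjusted p = 4.55e-04), and KLF2 stood at 16.3 in PP and 1.60 in non-PP of pig 1, against 25.6 in whole ileum. S1PR5, an exit receptor of killer cells, stood at 0.379 and 0.0 against 85.4 and 51.5 (adjusted p = 3.26e-05), with 1 UMI in the ileal cells and 215 in blood, too few for a fold. Ileal and blood values of these 3 genes were separated by more than an order of magnitude.

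Adhesion genes went along: ITGB2 of the LFA-1 integrin fell by 4.12 on the log2 scale, ITGAL by 1.15, and the calcium-binding S100A4 and S100A6 by 4.98 and 5.85. The exit receptor gene S1PR1 fell by 2.10. CCR7 fell by 1.64 and LEF1 by 1.47, and both calls were lost without whole ileum pig 1 (adjusted p = 0.118 and 0.100). In the ileal libraries of pig 1, CCR7 stood at 13.6 in PP, 0.0 in non-PP and 49.2 in whole ileum. LEF1 stood at 5.43, 1.60 and 42.3 in the same order. The genes that rose were the chemokine receptor CXCR4, at 104 and 158 against 25.5 and 8.59 (3.18 ± 0.37), the oxysterol receptor GPR183 (3.35 ± 0.41) and TCF7 (0.72 ± 0.17). The call of TCF7 was lost without whole ileum pig 1 (adjusted p = 0.366). Without that library 12 circulation genes were called lower and 2 higher.

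Early response and stress genes stood higher in ileum in 9 of 14 genes tested and lower in none, with a median log2 fold change of 2.90. With pig as a block 13 of the 14 were called, beside 24.2% of all genes. NR4A2, an orphan receptor induced by T cell receptor signals, stood at 239 and 226 against 8.88 and 2.24 (5.78 ± 0.39, adjusted p = 7.63e-06, and 2.26e-04 without whole ileum pig 1). NR4A1 stood at 20.9 and 35.4 against 0.0 and 0.747 and NR4A3 at 29.98 and 38.2 against 0.0 and 0.373, called with 2 and 1 UMIs in blood. Among the AP-1 genes FOS stood at 119 and 128 against 9.99 and 14.6 (3.20 ± 0.39), JUN rose by 1.72 and ATF3 by 4.97. PPP1R15A, a stress response gene, stood at 134 and 169.8 against 7.77 and 9.33 (4.06 ± 0.22). EGR1 and DNAJB1 were not called without whole ileum pig 1 (adjusted p = 0.101 and 0.179). Whether the preparation of the ileum, which blood cells did not undergo, had a part in this group was not tested.

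The killing genes did not move as 1 group. Of 18 entries 4 were higher in ileum and 7 lower, a median log2 fold change of 0.09. GNLY stood at 4277 and 3661 CPM in the ileum and at 13397 and 14378 in blood (-1.83 ± 0.18, adjusted p = 7.09e-05, and 0.00436 without whole ileum pig 1). GZMK went the other way at 250.5 and 341 against 59.9 and 84.0 (1.96 ± 0.22, adjusted p = 1.71e-04, and 0.00501 without whole ileum pig 1). The GZMA entry ENSSSCG00000016902 stood at 5207 and 4814 against 112 and 428 (4.17 ± 0.46), while ENSSSCG00000016903 stood at 2923 and 2198 against 1211 and 2205 (0.56 ± 0.25, adjusted p = 0.163). Since reads of these 2 entries may have been split differently in the pigs and tissues, their difference is uncertain. The granule matrix proteoglycan SRGN rose by 1.10 and CTSC by 0.89, and the death ligand TNFSF10 fell by 1.66. PRF1 stood at 232 and 286 against 198 and 345 and was not called (-0.11 ± 0.23, adjusted p = 0.806). FASLG, STX11 and SERPINB9 were also called lower, calls that were lost without whole ileum pig 1 (adjusted p = 0.100, 0.130 and 0.0814).

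NKG7 stood at 1085 and 1003 against 1760 and 2158 (-0.93 ± 0.13). It was called without whole ileum pig 1 (adjusted p = 0.0403) and not after subtraction of free RNA (adjusted p = 0.0617). RAB27A, which docks granules, fell by 0.78. Protein levels were not measured.

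Cytokine genes were mostly higher in the ileal cells, 7 of 12 tested against 2 lower (median log2 fold change 1.43). XCL1 stood at 328 and 444 CPM against 24.4 and 22.0 in blood (4.04 ± 0.19, adjusted p = 1.09e-06, and 4.45e-05 without whole ileum pig 1). IFNG stood at 205 and 249.5 against 56.6 and 54.9 (2.00 ± 0.18), and the entry of CCL4, a macrophage chemokine, ENSSSCG00000038096, rose by 1.68. IL26 and IL22, cytokines that act on epithelium, were not detected in blood, and in the ileum stood at 38.3 and 7.08 and at 17.1 and 17.5. These levels came from few cells. By library IL22 was found in 0.48% to 2.01% of members. IL26 was found in 0.53% to 14.9%, from 5.30 CPM in non-PP pig 2 to 95.1 in PP pig 1. The calls of IL26 and IL22 were lost without whole ileum pig 1 (adjusted p = 0.0556 and 0.0647), as was that of IL10 (0.225). LTB fell by 2.25 and CSF1 by 1.88. CCL5 was not called, at 28031 and 21154 against 19504 and 17717 (0.38 ± 0.20, adjusted p = 0.245, and 0.0183 with pig as a block).

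The T cell receptor list held 9 genes that were higher and 1 that was lower of 16 tested (median log2 fold change 0.83). CD3D stood at 428 and 380.2 against 169.8 and 152 (1.31 ± 0.15), and CD247, CD3G, CD2 and LAT rose by 1.02, 0.91, 0.95 and 1.01. SH2D1A, the adaptor of SLAM receptors, stood at 38.7 and 42.9 against 265 and 379 (-3.02 ± 0.26). CD5, CD6, THEMIS and CD8A were not called without whole ileum pig 1 (adjusted p = 0.146, 0.107, 0.0607 and 0.239). Natural killer receptors were mixed, with 3 higher and 4 lower of 13. CRTAM, a receptor of activated killer T cells, stood at 165 and 203 against 18.9 and 11.6 (3.69 ± 0.26), whereas KLRG1, a mark of terminal effector cells, stood at 5.69 and 4.25 against 205 and 118 (-4.97 ± 0.41). NCR3 fell by 2.59 and HCST, the NKG2D adaptor, by 1.39. FCGR3A and CD244 were called only with whole ileum pig 1 (adjusted p without it 0.356 and 0.100).

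Among 20 transcription factor genes 5 were higher and 7 lower. TBX21, which encodes T-bet, the master factor of killer effector cells, stood at 19.4 and 16.5 against 139.8 and 109 (-2.78 ± 0.20, adjusted p = 1.21e-05, and 2.75e-04 without whole ileum pig 1). ZEB2, another effector factor, stood at 5.31 and 4.25 against 95.4 and 70.9 (-4.09 ± 0.37). BATF and HOPX fell by 1.57 and 1.69. ID2, which supports effector and resident cells, stood at 761 and 812 against 399 and 315 (1.12 ± 0.14), and AHR, a sensor of dietary ligands, rose by 1.97. EOMES, IKZF3, IRF1 and TOX2 were called only with whole ileum pig 1 (adjusted p without it 0.114, 0.139, 0.119 and 0.0552).

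Checkpoint and costimulation genes were higher in 4 of 10 and lower in none (median log2 fold change 0.96). CD96 stood at 133 and 101 against 21.1 and 6.72 (3.35 ± 0.40), CTLA4 rose by 3.19, TNFRSF9 by 2.49 and the ectoenzyme gene ENTPD1 by 1.52. The exhaustion markers PDCD1 and LAG3 were not called (log2 fold changes -0.29 and 0.55, adjusted p = 0.699 and 0.451). Of 15 cytokine receptor and signalling genes, 5 were higher and 2 lower. IL18R1 and TGFBR2 rose by 1.64 and 1.21 and IL2RA by 3.13, and IL10RA fell by 1.37. IFNGR1 and IL7R were not called without whole ileum pig 1 (adjusted p = 0.0742 and 0.175).

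Of 11 replication genes 5 were lower in ileum, where the rule had removed cells with TOP2A on both sides. HMGB2 stood at 663 and 483 against 1933 and 1341 (-1.53 ± 0.27) and STMN1 fell by 1.40, and BIRC5, MCM3 and PCLAF were not called without whole ileum pig 1 (adjusted p = 0.0880, 0.0998 and 0.127). None of 13 interferon-stimulated and 6 MHC class II genes was called. With pig as a block, where 24.2% of all 8786 genes were called, 6 and 1 were, the second share lying below that of all genes. ISG15, for example, stood at 882 and 1931 in ileum and 374 and 1762 in blood. The ileal value of pig 1 rests on the library labelled whole ileum pig 1, where ISG15 was at 1499.7, while the PP and non-PP libraries of this pig had 562 and 475. GAPDH was the sole glycolysis gene called of 7, lower by 0.86, and it was not called without that library (adjusted p = 0.210).

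**Figure D4:**
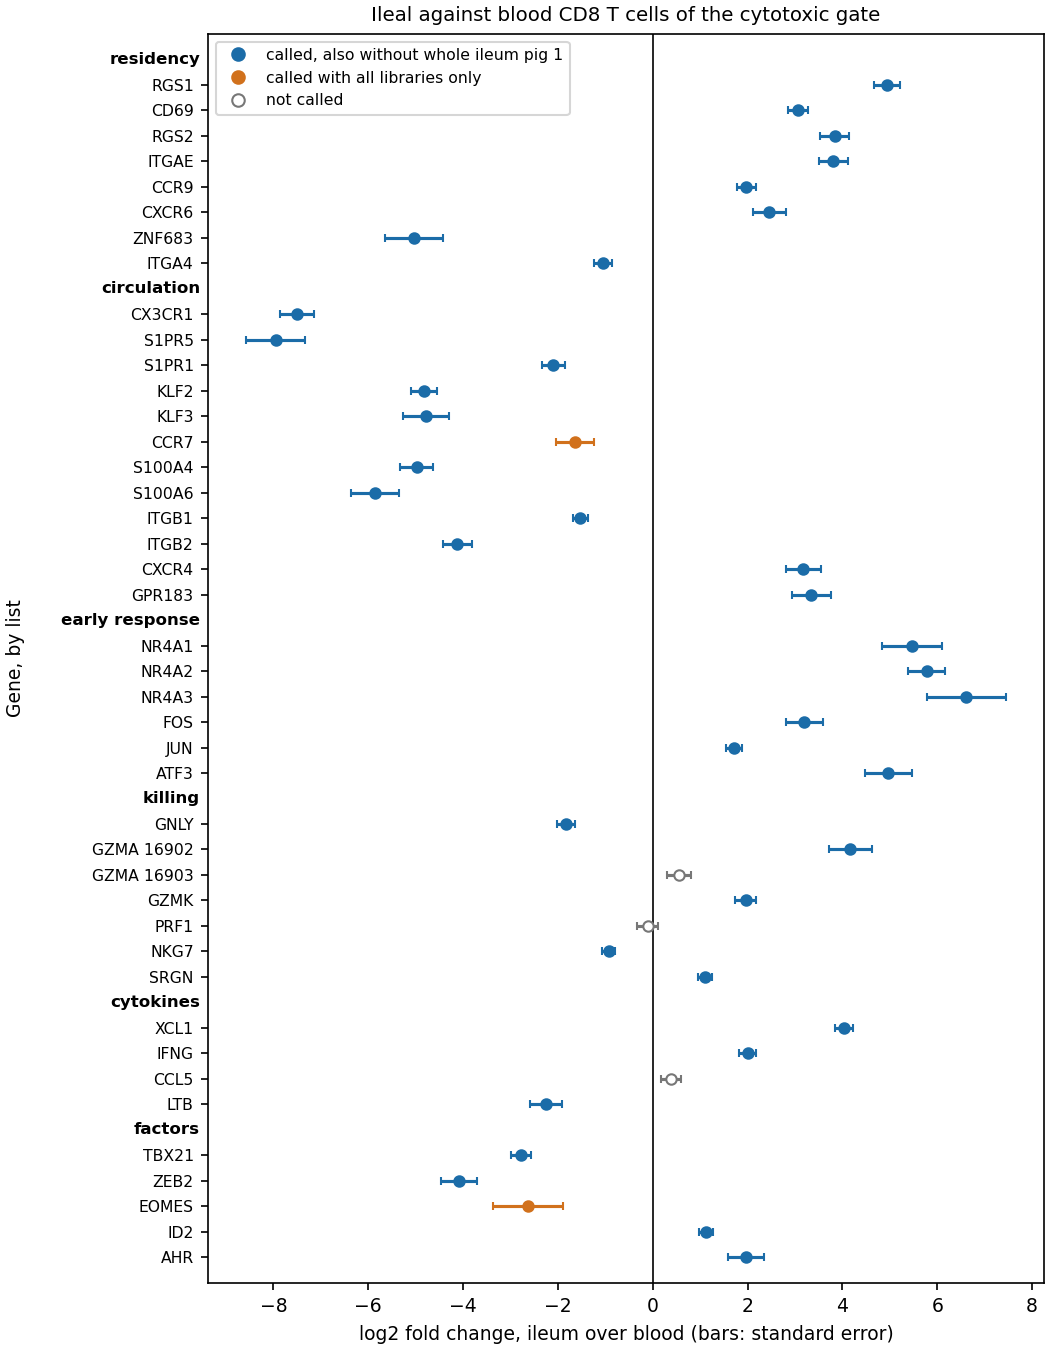
Log2 fold change (x axis) of ileal over blood CD8 T cells of the same gate, with SE as bars, for genes grouped by list (y axis); blue is called with and without whole ileum pig 1, orange called with all libraries only, open not called. Residency and early response genes lie mostly to the right, and CX3CR1 (-7.50) far to the left; the point of S1PR5 rests on 1 ileal UMI.

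Markers of other cells moved with the same contrast. Of 10 epithelial genes listed, 8 were found by name in the files, 6 were tested and 5 were higher in ileum. Their sum in the members was 448, 78.2, 2064, 404, 141 and 128 CPM in PP, non-PP and whole ileum pigs 1 and 2, and 0.0 and 0.747 in blood. FABP6, a bile acid carrier of ileal enterocytes, led in each ileal library, and its level in empty droplets of the ileum reached 55450.2. Of 10 myeloid genes 9 were tested and 5 were lower in ileum, led by CST3 in every library, with sums of 68.9 to 266 in ileum and 332 and 720 in blood. The antibody-secreting list had 1 gene higher of 4 tested (XBP1) and the group 3 ILC list 3 of 3 (KIT, IL22 and CXCL8), while CD4 and follicular genes had 1 of 3 (CTLA4). None was called of 3 B cell, 3 stromal genes and HBB, whose level was 17494 and 2341 in blood. After subtraction of free RNA, where 9.33% of all genes tested were called, 1 epithelial gene (CDH17), 2 myeloid genes, no group 3 ILC gene and no antibody-secreting gene were. HBB and 1 CD4 and follicular gene were called there as well. Without whole ileum pig 1 the counts were 2 epithelial, 0 myeloid, 2 group 3 ILC and 0 antibody-secreting. With pig as a block they were 6, 9, 3 and 4, and 2 stromal genes and HBB were called as well, beside 24.2% of all genes.

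The genes with the largest folds carried the same mark. By rule the 10 named genes with the largest log2 fold change in each direction were IL26, LGALS2, SPAI-2, KRT14, SST, GCG, LGALS4, SLC51B, CLDN7 and CABLES1 on the ileal side. All 10 were at 0 in blood. Against a floor of 3 counts over the blood group (0.838 CPM) they were at least 29.1-fold higher for IL26 and at least 11.3-fold higher for CABLES1, with the others between. Most of them are epithelial or hormone genes, as SST and GCG encode somatostatin and glucagon, and 9 of the 10 were no longer testable after the subtraction of free RNA. Of these 10, IL26, LGALS4, SLC51B and CLDN7 were not called without whole ileum pig 1 (adjusted p = 0.0556, 0.0926, 0.0748 and 0.0671). On the blood side the rule gave PPBP, GP1BB, ALAS2, F13A1, TUBB1, FCN1, HBM, S1PR5, CX3CR1 and FUT7. PPBP, GP1BB, F13A1 and TUBB1 belong to platelets, ALAS2 and HBM to red cells and FCN1 to monocytes, and TUBB1 and FUT7 could not be tested without that library. PPBP was at 0 in the ileal cells and at least 497-fold higher in blood against a floor of 3 counts over the ileal group (0.631), and its level in empty blood droplets was 1144 to 3198.

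The last comparison set the members beside ileal cytotoxic gamma delta T cells (1955 cells), which passed the same gate but had TRDC and lacked CD8B. Gamma delta T cells read their targets without classical MHC and are abundant in the pig. Of 8786 genes 46 were higher in the CD8 cells (0.524%) and 100 lower (1.14%), far fewer than between ileum and blood. Without whole ileum pig 1 the counts were 6 of 8439 (0.0711%) and 13 (0.154%), all of which were also called with it and which include CD8B and TRDC of the rule. With pig as a block, 320 genes were called. After subtraction of free RNA 40 of 7290 were (0.549%). Leaving out markers of other cell types, 38 called genes were on a list or named by rule. After the subtraction 17 of them kept the call, 18 lost it and the others could not be tested. Among those lost were S1PR1, ZNF683, CD200, KLK7, TNFAIP2, TLE1 and CAVIN2. Depth was alike, with median UMIs of 2400 and 2416.

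Among granule genes 2 were higher in the CD8 cells and 1 lower of 18 tested, with a median log2 fold change of -0.31 where all genes had -0.01. GZMK separated the classes most firmly, at 250.5 and 341 CPM in CD8 cells and 36.0 and 25.4 in gamma delta cells (3.29 ± 0.23, adjusted p = 3.80e-05, and 0.00165 without whole ileum pig 1). GZMM, another granzyme, stood at 95.6 and 93.4 against 22.5 and 16.8 (2.30 ± 0.26, adjusted p = 0.00121, and 0.0539 without that library). GNLY stood at 4277 and 3661 against 10756 and 11175 (-1.42 ± 0.18, adjusted p = 0.00201, and 0.101 without it). PRF1 and both GZMA entries were not called.

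Of 16 T cell receptor genes 3 were higher and 1 lower. LAT, the scaffold below the receptor, stood at 365 and 399 against 119 and 125 (1.69 ± 0.20, adjusted p = 0.00125, and 0.0441 without whole ileum pig 1). CD5 stood at 288 and 364 against 86.0 and 108 (1.79 ± 0.22), and CD8A, which pairs with the CD8B of the rule, at 873 and 871 against 368 and 276 (1.48 ± 0.18). CD247, the zeta chain, was lower at 670.2 and 776 against 1793 and 2113 (-1.39 ± 0.16). The last 3 were not called without that library (adjusted p = 0.262, 0.0860 and 0.0661), where their log2 fold changes were 1.68, 1.51 and -1.39.

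Natural killer receptors split, with 2 higher and 1 lower of 13. FCGR3A stood at 2260 and 2772 in CD8 cells against 925 and 746 (1.63 ± 0.20), and CD226, an activating receptor, rose by 0.93. FCER1G was lower at 302 and 123 against 1306 and 1053 (-2.42 ± 0.50). None of the 3 was called without whole ileum pig 1 (adjusted p = 0.349, 0.103 and 0.471). KLRK1 stood at 366 and 240.1 against 1117 and 1204 and was not called (-1.89 ± 0.63, adjusted p = 0.274, and 0.0272 with pig as a block).

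Of 12 cytokine genes 4 were higher and none lower, with a median log2 fold change of 1.03. IFNG stood at 205 and 249.5 in CD8 cells against 88.4 and 76.9 (1.5 ± 0.17, adjusted p = 0.00121, and 0.0180 without whole ileum pig 1). The CCL4 entry ENSSSCG00000038096 stood at 70.6 and 97.2 against 34.3 and 36.7 (1.27 ± 0.17, adjusted p = 0.00335, and 0.0441 without it), and was not called after subtraction of free RNA (adjusted p = 0.0677), where 0.549% of all genes were called. CCL3L1 and IL10 rose by 2.11 and 1.75, calls lost without that library (adjusted p = 0.143 and 0.392). XCL1 and CCL5 were not called (log2 fold changes -0.58 and 0.10, adjusted p = 0.129 and 0.945), though XCL1 was with pig as a block (adjusted p = 0.0176).

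Of 13 residency genes tested 1 was called, ZNF683, which was lower (-3.61 ± 0.65, adjusted p = 0.0160, and 0.179 without whole ileum pig 1). With pig as a block 4 of the 13 were called, beside 3.64% of all genes. ITGAE stood at 382 and 255 against 523 and 336 and was not called (-0.39 ± 0.25, adjusted p = 0.693), nor were CD69 and CCR9 (0.03 and -0.30). A p that misses the threshold does not show that the classes are alike. Of 17 circulation genes 1 was higher and 2 were lower, and none was called without that library. S1PR1 was higher by 1.94 and ITGB1, among the lower, fell by 1.01 (adjusted p without it 0.516 and 0.106).

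Of 20 transcription factor genes 3 were lower and none higher. IKZF2, which encodes Helios, stood at 71.0 and 46.7 against 240.2 and 205 (-1.86 ± 0.21, adjusted p = 0.00121, and 0.0441 without whole ileum pig 1). HOPX and GATA3 fell by 1.15 and 0.81, calls lost without it (adjusted p = 0.132 and 0.168), where their log2 fold changes were -1.16 and -0.85. Among cytokine receptors IL7R was higher by 1.29 and IL2RB lower by 1.05 of 15 tested, and of 10 checkpoint genes TNFRSF9 was lower by 0.90. All 3 calls were lost without that library (adjusted p = 0.329, 0.165 and 0.313). No early response, interferon-stimulated, MHC class II, replication or glycolysis gene was called. With pig as a block 3.64% of all 8786 genes were called. Among them were 8 of 16 T cell receptor, 8 of 13 natural killer receptor, 7 of 10 checkpoint, 6 of 20 transcription factor, 5 of 17 circulation, 4 of 13 residency, 3 of 13 interferon-stimulated and 3 of 11 replication genes. Of the lists of other cell types, the cadherin gene CDH17 of the epithelial list was lower at 16.3 and 11.8 against 72.8 and 66.7 (-2.25 ± 0.22, not called after subtraction of free RNA, adjusted p = 0.22). KIT was lower at 11.01 and 9.43 against 56.2 and 69.9 (-2.56 ± 0.31, a call lost without whole ileum pig 1, adjusted p = 0.0860).

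By the rule for named genes, the largest differences on the CD8 side were CFAP54, GZMK, CD200, GZMM, KLK7, IGFBP2, CCL3L1, S1PR1, TNFAIP2 and CD5. CFAP54 stood at only 5.31 and 4.72 CPM against 0.347 and 0.390. IGFBP2, an insulin-like growth factor binding protein, stood at 68.7 and 69.8 against 14.6 and 15.2 (2.26 ± 0.34, adjusted p = 0.00589, and 0.0661 without whole ileum pig 1). On the gamma delta side they were CAVIN2, GAPT, RHEX, CCL21, LYVE1, MEF2C, STAP1, TLE1, ZNF683 and DDC. RHEX stood at 1.14 and 1.89 in CD8 cells and 65.5 and 104 in gamma delta cells (-5.73 ± 0.45, adjusted p = 1.04e-04, and 0.00106 without that library), and GAPT, an adaptor of the Grb2 pathway, at 0.0 and 0.472 against 18.4 and 17.6, with 1 UMI in the CD8 cells. These levels came from few cells, since RHEX was found in 5.83% and GAPT in 2.86% of gamma delta cells. Of these 20 genes only GZMK, RHEX and GAPT were called without whole ileum pig 1. CAVIN2 was at 0 in the CD8 cells, at least 16.0-fold lower than in gamma delta cells, taking 3 counts over the CD8 cells as the floor.

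**Figure D5:**
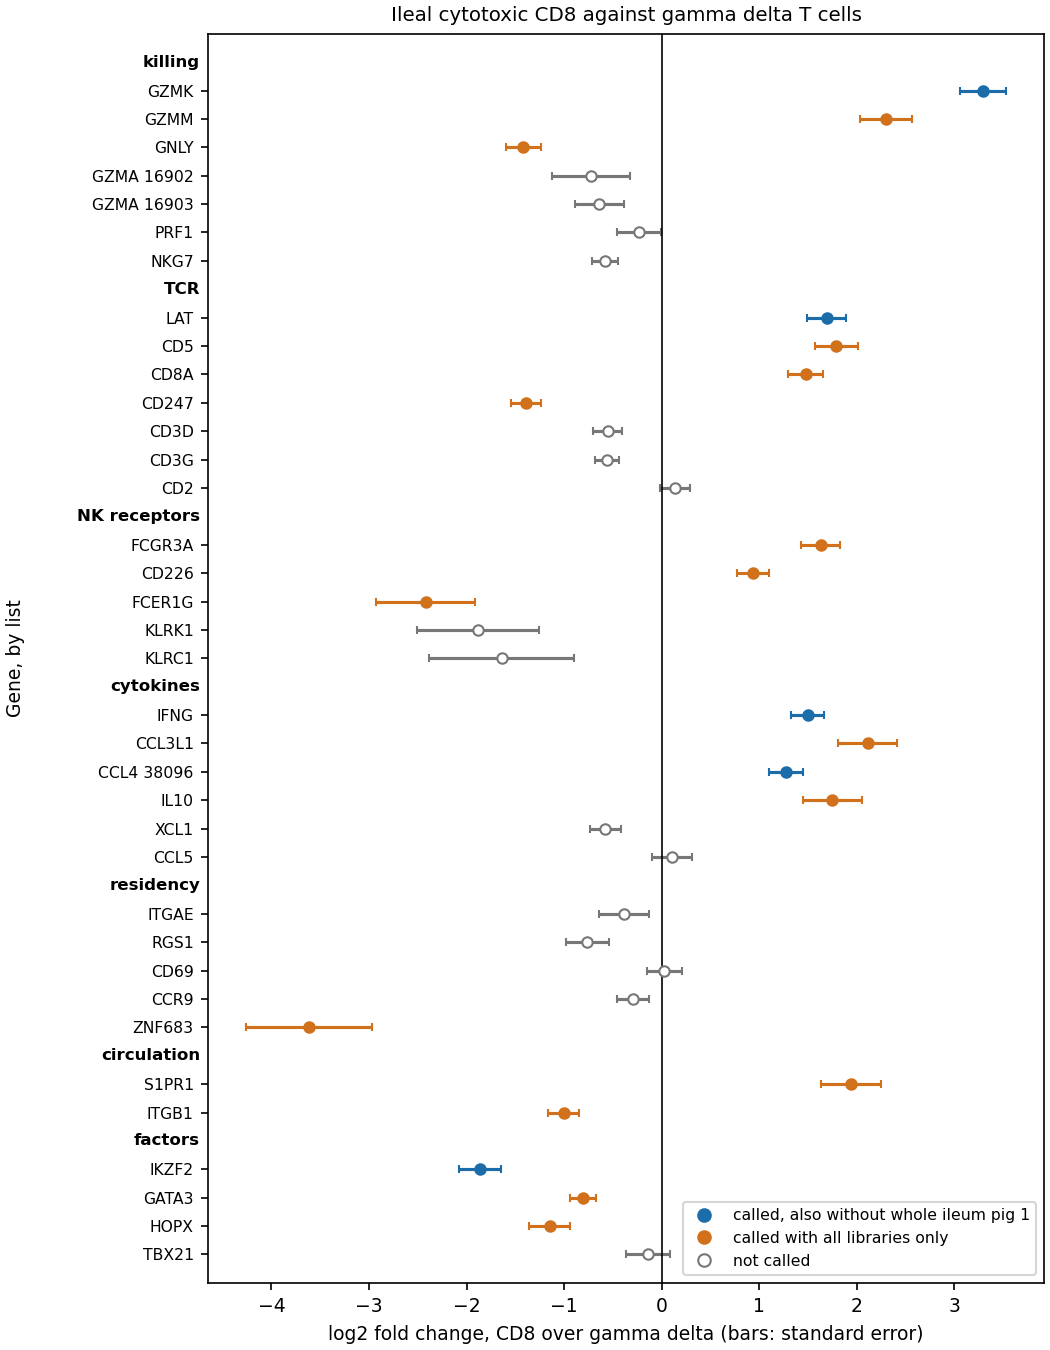
Log2 fold change (x axis) of ileal cytotoxic CD8 over ileal cytotoxic gamma delta T cells, with SE as bars, for genes grouped by list (y axis); blue is called with and without whole ileum pig 1, orange called with all libraries only, open not called. GZMK (3.29), LAT, IFNG, CCL4 and IKZF2 (-1.86) are blue, and most of the called genes are orange.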

How the data were processed

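Single-cell RNA-seq libraries (Chromium 3′ v2) from 3 ileal dissections and PBMCs of 2 pigs were used. The authors aligned reads to Sscrofa11.1 with Cell Ranger and a modified Ensembl annotation and deposited raw UMI counts for 25880 genes and 737280 barcodes per library, before their removal of free RNA, poor cells and doublets. Their cell annotation was not used here. Barcodes with at least 1250 UMIs, 550 genes and at most 12.5% mitochondrial UMIs were kept and gated on transcripts. The members and all gene lists were chosen with earlier results of these data known. Doublets were limited by the genes the rule required to be absent, and removed by scanpy's Scrublet (score over 0.25) in an alternative.

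Counts were summed per library or per pig and class. They were tested with edgeR 4.0.16 (R 4.3.3): filterByExpr, TMM, quasi-likelihood fit, Benjamini-Hochberg over all genes tested. The ileum-blood and gamma delta comparisons came from 1 fit of 10 sums. The study's expression tests took single cells, while its abundance test of PP against non-PP took the 2 pigs as replicates. Sums per library (PP and non-PP) or per pig (the other comparisons) were compared here. By label both sides of each comparison came from the same 2 animals, so pig numbers pair them. For whole ileum pig 1 this pairing is uncertain, since its Y-linked level did not go with its label. No fit with pig as a block was run without that library. The correlation of same-pig deviations was 0.450 for PP and non-PP, 0.223 for ileum and blood and 0.421 for CD8 and gamma delta cells. DESeq2 1.42.0, RLE scaling, no filter, other gates, thinned cells, subtraction of free RNA and left-out libraries were alternatives. Free RNA was estimated from empty droplets (at most 100 UMIs).

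Named genes were list members and, per comparison and direction, the 10 named called genes with the largest log2 fold change beyond 1 and of 1 sign in both pigs. Genes of the rule, immunoglobulins and markers of other cell types were left out of those 10. Symbols came from the matrices for 17733 genes, from a name table for 969 and from the study's renaming table for 19, and 7159 had none. Scripts were tested on simulated data. Other software was Python 3.11.15 with scipy 1.17.1 and scanpy 1.11.5. A gene counted in a list may not be reported here by name.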

Additional observations from a re-analysis of the deposited data

Results flagged for a closer look

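The library labelled whole ileum pig 1, from the pig labelled female, held 207 Y-linked UMI counts per 1000000 UMIs (CPM) over its kept barcodes. This stood out because the other pig 1 libraries held 0.161 (PP), 0.224 (non-PP) and 0.0 (PBMC), while the pig 2 libraries held 213, 185, 226 and 119. The Y-linked genes were kept as a check of the labels. Of the 7 listed, 2 or 3 were tested in each comparison, and none was called except 1 with pig as a block between ileum and blood. The cause was not tested.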

How the results depend on the processing

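Between PP and non-PP, 41 genes were called without a filter on low counts, 2 with pig as a replicate block, and 0 to 6 when 1 library was left out, against 0 in all other settings run. Between ileum and blood, 1431 genes were called, 743 with DESeq2, 656 without whole ileum pig 1, 666 without both whole ileum libraries, 680 after subtraction of free RNA, and 718 to 985 when 1 sum was left out (985 without blood pig 1 and 718 without blood pig 2). Pig as a replicate block gave 2128 (24.2%), including all 1431, with whole ileum pig 1 paired by its label. By list it called 13 of 14 early response, 13 of 16 T cell receptor, 10 of 13 residency, 17 of 17 circulation and 12 of 18 granule genes. It also called 14 of 20 transcription factor, 10 of 12 cytokine, 8 of 15 cytokine receptor and 8 of 11 replication genes. Of natural killer receptor, checkpoint and glycolysis genes it called 7 of 13, 5 of 10 and 2 of 7. Between CD8 and gamma delta cells, 146 genes were called, 388 without a filter, 320 with the replicate block (including all 146), 637 with sums per library and library as a block, 19 without whole ileum pig 1, 23 without both whole ileum libraries, 40 after subtraction of free RNA, and 51 to 81 when 1 sum was left out. Where 1 sum was left in an arm, it was assumed to vary like the others. Of the list and named genes called, 115 between ileum and blood gave 1483 of 1697 repeats with the call kept and 214 with it lost, and 38 between CD8 and gamma delta cells gave 387 of 544 kept and 157 lost, and 0 repeats changed sign. The cause of these losses was not tested, apart from fewer sums or genes entering a fit. The difference in cytotoxic share ran from -24.2 to -5.48 points when 1 library was left out, was -14.8 as the mean of within-pig differences (replicate block), and lay between -15.8 and -11.3 in the other settings. As a share of all CD3E cells, another quantity, the difference was -7.66. Of these settings the gate at 6 GZMB UMIs was chosen after seeing the data. Leaving out PP pig 1 gave -5.48 and leaving out PP pig 2 gave -24.2. With 114 members in PP pig 1, depth limits the genes with low counts.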

Other observations

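The rule left out 182 ileal cells that passed the cytotoxic gate with CD3E and CD8B but held TRDC as well, 9.85% of that gate, with a median of 3185.5 UMIs per cell. For most genes that separate CD8 from gamma delta cells, they lay between the classes. TRDC was at 1305 CPM in these cells and 3688 in gamma delta cells. GZMK stood at 176, between 291 in members and 31.02 in gamma delta cells, and CD5 at 225, between 322 and 96.4. KLRK1 stood at 665, between 310 and 1158, FCER1G at 557, between 222 and 1187, and IKZF2, which encodes Helios, at 151, between 60.1 and 224. GNLY stood at 6929, between 4002 and 10953. FCGR3A, at 2064, was nearer to the members (2488) than to gamma delta cells (841), and was found in 94.5% of them. These are pooled values with no test. Whether the cells are doublets, cells holding free TRDC RNA or T cells with both transcripts was not tested.

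FCER1G and FCGR3A, which both belong to natural killer signalling, went apart from cell to cell in members, with a median Spearman correlation of -0.18 over the 6 libraries (-0.37 to -0.01) after thinning, while FCER1G and KLRC1 went together. As the cells of a library share its depth and free RNA, this is a description.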
